A study of Oryza sativa Indica Group with 8 samples.

Results

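OsPIN2 (LOC4341736) is the rice gene for a root tip auxin efflux carrier of the PIN family. It is 1 of 17905 measured genes. All probe sets mapped to it were taken, which gave 1 probe set of the 57194 that were not control probe sets. The gene was chosen with its levels on these arrays already known, so its levels and differences are given as a description, with no test.

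PIN proteins sit in the plasma membrane and carry auxin out of the cell, and the side of the cell on which they sit sets the direction of auxin flow. In Arabidopsis, PIN2 lies in the epidermis and cortex of the root tip, carries auxin from the tip back towards the elongation zone and is needed for roots to bend with gravity. In rice, loss of OsPIN2 also disturbs the response of roots to gravity. Short PIN proteins such as PIN5 and PIN8 of Arabidopsis act inside the cell, at the endoplasmic reticulum.

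Transcripts were measured in whole roots of Oryza sativa, Indica Group, on 8 Affymetrix arrays with 2 arrays in each of 4 groups. The groups were a control with full nutrients as far as the labels say, P deficiency, Fe deficiency, and combined deficiency of P and Fe. All seedlings were grown in hydroponic culture. The labels give 10 days of growth, seedlings 5 days old and, in the design text, 7 days of treatment, without saying how these times add up. No cultivar is named. The labels do not tell whether replicate arrays stem from independent cultures. The p-values below therefore cover only the scatter of these arrays, which could be technical.

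The median intensity of the deposited arrays ran from 48.0 to 54.4 in the control, from 62.2 to 62.9 in P deficiency, from 48.1 to 53.3 in Fe deficiency and from 63.9 to 68.9 in the combined deficiency. These medians therefore moved with P supply. Intensities were quantile-normalized, after which the median was 57.7 on every array. Within a group the arrays correlated at 0.965 to 0.974 across probe sets. The log2 difference between 3' and 5' probe sets is a sign of RNA quality. Its median over 4 control transcripts (actin, ef1a, gapdh and TrpnX) ran from -0.07 to 0.10 in P deficiency. It ran from -0.60 to 1.62 in the control, a range that held those of the other groups. The median hid differences between single transcripts. Actin was higher on the control arrays (5.405 and 5.035) than on the P deficiency arrays (4.361 and 4.378). TrpnX was lower on both control arrays, while ef1a and gapdh overlapped. Another gapdh pair (3.644 and 3.548 against 3.134 and 3.033) and a Cyph pair, outside this median, were also higher on both control arrays. The part of these differences in the results was not tested.

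The OsPIN2 signal was 388 and 462 on the control arrays. It was 1885 and 1560 on the P deficiency arrays. Both P deficiency arrays lay above every other array, and the lower of them was 3.37 times the higher control array. The signal was 342 and 456 on the Fe deficiency arrays, a range that overlapped the control. It was 1193 and 935 on the arrays of the combined deficiency, above both the control and Fe deficiency and below both P deficiency arrays. All these values lay well above the array median of 57.7. As deposited, before quantile normalization, the 8 values ran in the same order of groups, at 375 and 456 in the control, 1854 and 1524 without P, 340 and 450 without Fe, and 1187 and 928 without both.

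**Figure D1:**
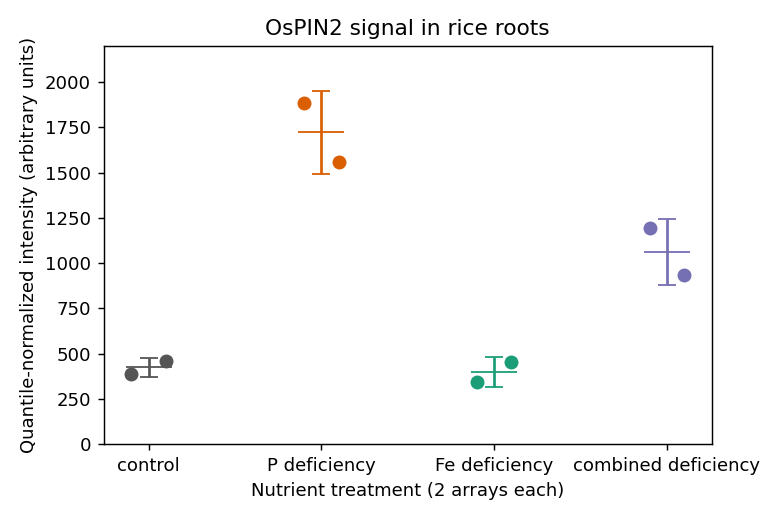
OsPIN2 signal in the 4 groups. The vertical axis is the quantile-normalized intensity, points are single arrays, the horizontal dash is the group mean and the bar the SD (n = 2 arrays). The P deficiency arrays (1885 and 1560) and the combined deficiency arrays (1193 and 935) lie above all arrays supplied with P.

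The group means ± SD (n = 2 arrays) were 1723 ± 230 in P deficiency, 1064 ± 183 in the combined deficiency, 425 ± 52.6 in the control and 399 ± 80.7 in Fe deficiency. Control and Fe deficiency did not differ beyond their spread. The lower P deficiency array was 1.31 times the higher combined deficiency array, while the 2 arrays of 1 group differed by 1.19 to 1.33 times. The arrays of these 2 groups did not overlap. In whole roots, more root tip cells and more OsPIN2 transcript per cell cannot be told apart.

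Withholding P from roots that had Fe went with a log2 difference in OsPIN2 of 1.98 (SE 0.23, from the limma fit on all arrays), a 3.94-fold higher signal on the log2(intensity + 16) scale. That was a larger rise than in all but 310 of the 57194 probe sets. Withholding P from roots that already lacked Fe gave 1.38 (SE 0.23, 2.61-fold), with 672 probe sets higher. These comparisons share no array. In the second, the lower combined deficiency array was 2.05 times the higher Fe deficiency array.

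Withholding Fe from roots that had P gave -0.10 (SE 0.23), and its sign turned without control replicate 2 (0.03) or Fe deficiency replicate 1 (0.10). Withholding Fe from roots that already lacked P gave -0.69 (SE 0.23), a 1.61-fold lower signal. Both deficiencies together against the control gave 1.29 (SE 0.23, 2.44-fold). The interaction, which is the effect of P withdrawal without Fe minus that with Fe, was -0.59 (SE 0.32). It ran from -0.79 to -0.39 when single arrays were left out. The difference without P in the presence of Fe ran from 1.85 to 2.12 over the same fits.

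The gene table named 9 PIN genes, of which 5 had a probe set. Besides OsPIN2 these were OsPIN5a (LOC4324368), OsPIN10a (LOC4326565, also named OsPIN3a), OsPIN9 (LOC4327533, also named OsPIN5) and a gene named both OsPIN5b and OsPIN5c (LOC4346116). Of these 4, 1 rose and 0 fell in P deficiency by the limma adjusted p over all probe sets. Among all 17905 genes taken with 1 probe set each, 8.02% rose and 7.33% fell in that comparison. No PIN gene other than OsPIN2 was tested against OsPIN2 itself, and signals of different probe sets are not levels that can be compared.

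The PIN gene that rose was OsPIN9, which in rice is known from adventitious root and tiller growth. Its signal was 69.3 and 60.4 in the control and 163 and 163 in P deficiency, where both arrays lay above both control arrays. The log2 difference was 1.15 (SE 0.20, limma adjusted p = 0.0296). It was 76.1 and 114 in the combined deficiency and 52.8 and 61.3 in Fe deficiency. OsPIN9, like OsPIN2, thus had its highest arrays in P deficiency, intermediate ones without both nutrients and overlapping ones in the 2 groups supplied with P. The difference for the combined against Fe deficiency was 0.58 (limma adjusted p = 0.217). All OsPIN9 signals supplied with P lay near the array median, where the size of a fold depends on the added 16. The call was lost without control replicate 1 or 2, either P deficiency array or either Fe deficiency array.

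OsPIN5a, a short PIN gene, gave 512 and 353 in the control and 548 and 453 in P deficiency, so these groups overlapped (0.22, limma adjusted p = 0.743, and -0.04 without control replicate 2). OsPIN10a, of the type that in Arabidopsis includes PIN3, gave 124 and 253 in the control and 154 and 32.1 in P deficiency. Its P deficiency arrays differed more from each other than from the control (-1.11, limma adjusted p = 0.4), and a second, dim probe set gave 1.02 (adjusted p = 0.3). The gene named OsPIN5b and OsPIN5c lay near the array median in the control and P deficiency, at 31.0 to 64.5 (0.03, limma adjusted p = 0.976).

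**Figure D2:**
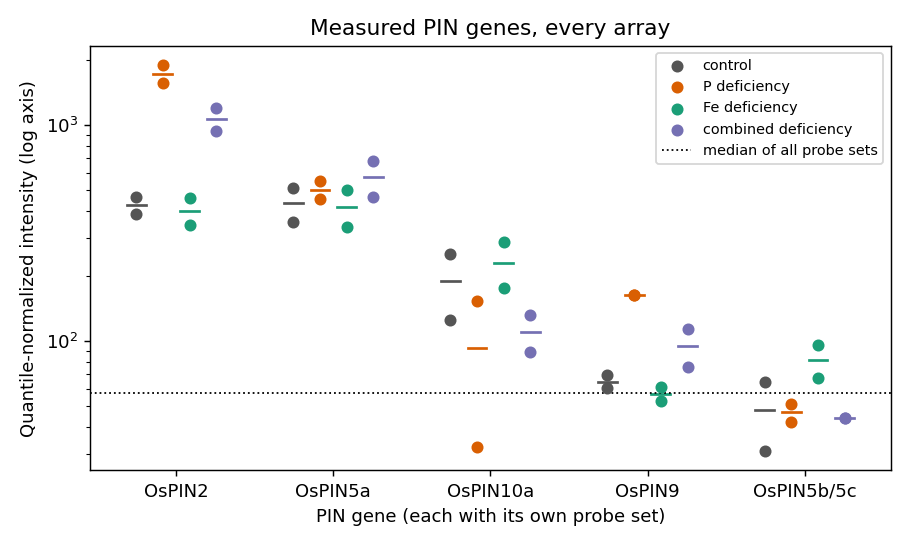
Quantile-normalized intensity (log axis) of the 5 measured PIN genes on every array, with group means as short lines and the median of all probe sets, 57.7, as a dotted line. OsPIN2 and OsPIN9 have their highest arrays in P deficiency, while the other 3 genes have groups that overlap between control and P deficiency. Heights of different genes are from different probe sets and cannot be compared.

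The other genes of the auxin pathway were listed by role, from influx carriers to response factors. No gene of the AUX1 and LAX influx carriers, the PILS carriers or the auxin receptors was matched by name, so these groups were not analysed here. This left 60 auxin genes besides OsPIN2. In P deficiency 7 of them rose (11.7%) and 3 fell (5%), close to the 8.02% and 7.33% of all genes. Their median log2 difference was 0.07, against -0.02 for all genes. At an unadjusted limma p below 0.05 there were 26 of the 60, against 13361 of all 57194 probe sets. These are unlike units, since by adjusted p 8.28% of probe sets but 15.4% of genes were called in P deficiency. Only OsGH3-1 (2.09) had a larger difference than OsPIN2 (1.98) in that comparison. This order turned without control replicate 1 (1.41 against 1.85), without P deficiency replicate 2 (1.95 against 2.12) and with an added 64 (1.54 against 1.87). A larger difference was seen in 0 of the 60 in the combined deficiency against Fe deficiency, where their highest difference was 1.13.

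The counts of adjusted calls in P deficiency rested on single arrays. They were 0 in all without either P deficiency array, 3 or 2 without control replicate 1 or 2, 2 without either Fe deficiency array and 7 without either combined deficiency array. With an intensity trend in the variance prior, 24 of the 60 passed. Calls over all 57194 probe sets then went from 4736 to 9121. The share of all genes, with 1 probe set each, was not taken under this setting. The 24 can therefore not be told from the rest.

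Auxin synthesis was represented by 2 genes, and limma called 0 of them in P deficiency (1 at an unadjusted p below 0.05). Of all genes, 8.02% rose and 7.33% fell, so 2 genes are too few to tell this list from the rest. OsTAR2, the rice aminotransferase at the first step from tryptophan to auxin, gave 1063 and 1134 in the control, 1435 and 1887 in P deficiency, 898 and 862 in Fe deficiency and 1592 and 1154 without both. Its arrays without P lay above its arrays with P, with a log2 difference of 0.58 in P deficiency (limma adjusted p = 0.189). The flavin monooxygenase gene OsYUCCA1 lay near the array median, with control and P deficiency means of 51.8 and 43.0.

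Among 10 genes of auxin conjugation and oxidation, 1 rose and 2 fell in P deficiency, where 8.02% of all genes rose and 7.33% fell. GH3 enzymes join auxin or jasmonate to amino acids. OsGH3-2 (LOC4326893) gave 1952 and 2287 in the control and 814 and 755 in P deficiency (-1.41, SE 0.15, limma adjusted p = 0.0101). OsGH3-6 (LOC4337780) gave 1137 and 1056 in the control and 576 and 535 in P deficiency (-0.96, limma adjusted p = 0.0189). For both genes the groups did not overlap, and the direction was opposite to that of OsPIN2.

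OsGH3-2 stood at 2295 and 2343 in Fe deficiency and at 1195 and 1074 without both nutrients. It fell in the combined deficiency against Fe deficiency as well (-1.02, limma adjusted p = 0.042), where 1.47% of all genes fell. OsGH3-1 (LOC4327043) rose in P deficiency from 31.3 and 103 to 271 and 341 (2.09, SE 0.45, limma adjusted p = 0.0496). Its 2 control arrays lay on either side of the array median of 57.7, so the size of that rise is inexact. The difference ran from 1.41 to 2.76 when single arrays were left out, and the call held in 1 of these 8 fits, without control replicate 2. The single ABCB gene, listed as mdr17 (LOC4324720), of a transporter family with some auxin carriers, was not called. Its mean was 2446 in the control and 1703 in P deficiency (-0.52, limma adjusted p = 0.0854).

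Aux/IAA proteins repress the auxin response and many of their genes are switched on by auxin. Of 26 measured, 4 rose and 1 fell in P deficiency, where 8.02% of all genes rose and 7.33% fell. Those that rose were IAA13 (LOC4334069, 1.12), IAA12 (LOC4333512, 1.15), IAA30 (LOC4352721, 0.80) and IAA31 (LOC4352722, 1.65), with limma adjusted p from 0.0167 to 0.0292, and IAA1 (LOC4323871) fell (-0.86). Another, dim probe set of IAA1 gave -0.07 (limma adjusted p = 0.947), and another, dim one of IAA31 gave 0.11 (limma adjusted p = 0.93). Of 17 ARF transcription factor genes 1 rose, against the same 8.02% of all genes. It was OsARF8 (LOC4337363, 0.95, limma adjusted p = 0.0181).

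Without P in roots that lacked Fe, 2 of the 60 auxin genes rose and 2 fell (3.33% each), where 2.64% of all genes rose and 1.47% fell. The genes that rose were IAA12 (1.00) and IAA30 (0.86), and those that fell were IAA1 (-0.92) and OsGH3-2. In the combined deficiency against the control, 0 rose and 3 fell, where 3.77% of all genes rose and 2.93% fell. The 3 were IAA1 (-1.01), OsGH3-2 (-0.89) and IAA20 (LOC4340245, -1.63). An unadjusted limma p below 0.05 was seen in 22 of the 60 in the combined against Fe deficiency. In the combined deficiency against the control it was seen in 20. Among all 57194 probe sets it was seen in 10312 and 11347. None of the 3 or 4 calls of these comparisons held when any single array was left out. In Fe deficiency against the control, limma called 0 of the 60, against 0.212% of all genes. In the combined against P deficiency it called 0, against 0.0391%. In the interaction it called 0, against 0.0559%. At an unadjusted limma p below 0.05 there were, in the same order, 2, 6 and 0 of the 60. Among all 57194 probe sets there were 4767, 5806 and 5011.

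**Figure D3:**
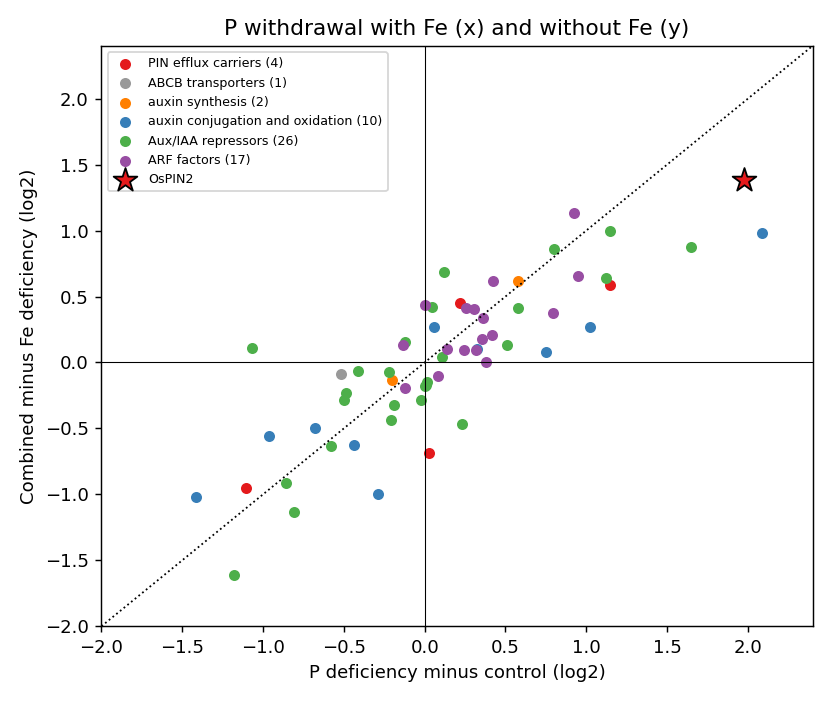
Log2 difference on P withdrawal with Fe supplied (horizontal) and with Fe withheld (vertical) for the measured auxin genes, coloured by list with the number of genes. The star is OsPIN2, at 1.98 and 1.38, below the dotted line of equal differences. The 2 axes share no array, and most of the other 60 genes lie between -1 and 1 on both.

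Genes of the root tip and of gravitropism were set beside OsPIN2. Of 7 measured, limma called 0 in P deficiency (2 at an unadjusted p below 0.05, median -0.01). Of all genes, 8.02% rose and 7.33% fell, with a median of -0.02. An unadjusted limma p below 0.05 was seen in 13361 of all 57194 probe sets. With so few genes, these counts cannot tell the list from all genes. OsPID, a protein kinase gene whose Arabidopsis relative sets the side of the cell on which PIN proteins sit, had means of 539 in the control and 437 in P deficiency (-0.28, limma adjusted p = 0.519). OsWOX9, also named QHB and known from the quiescent centre of the rice root, had 146 and 103 (-0.44, adjusted p = 0.106). OsSHR1, a GRAS factor gene of root patterning, had 514 and 420 (-0.29, adjusted p = 0.449). LAZY1, a gene of shoot gravitropism listed as LA, had 64.9 and 134 (0.96, adjusted p = 0.168).

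The summed signal of these 7 genes ran from 1633 to 1897 in the control and from 1528 to 1802 in P deficiency, ranges that overlap. The lowest and highest sums were 1717 and 1742 in Fe deficiency and 1459 and 1647 in the combined deficiency. Of the root hair list only OsCslD1 was measured, and it lay near the array median.

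Markers of dividing cells moved with OsPIN2. Of 50 cyclin and kinesin genes 18 rose and 2 fell in P deficiency, with a median of 0.71, against 8.02% and 7.33% of all genes and a median of -0.02. Their summed signal was 38513 to 40477 in the control, 58165 to 61846 in P deficiency, 36435 to 37238 in Fe deficiency and 50498 to 50857 in the combined deficiency. The groups kept the order seen for OsPIN2, with the combined deficiency between P deficiency and the groups supplied with P. The number called in either direction was 0 without either P deficiency array, and 2 or 3 without control replicate 1 or 2. Their part in the OsPIN2 difference was not tested.

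Other markers moved too. Of the 6 markers of root tissue, 4 were called higher and 2 lower in P deficiency, where 8.02% of all genes rose and 7.33% fell. OsCesA4, OsCesA7, OsCesA9 and OsCASP1 rose, while Lsi1 and Lsi2 fell, so the 6 genes did not move as a set. The median log2 difference of the 6 was 1.19, while their sums were lower. The sums ran from 40387 to 43818 in the control, 37003 to 37705 in P deficiency, 40513 to 41417 in Fe deficiency and 35430.2 to 38859 without both. Lsi1 had the largest signal in these sums, with means of 26951 in the control and 16964 in P deficiency. Of 6 photosynthesis genes, used as markers of shoot tissue, 4 fell, against the same 7.33% of all genes. Their sums were 48518 to 51194 in the control and 30669.5 to 31653 in P deficiency. They were 43229 to 46993 in Fe deficiency and 33689 to 35289 without both. Other probe sets did not all follow these calls. CAB2R, not called, had another bright one that was lower (-0.99, limma adjusted p = 0.0165). OSA15, which fell, had a dim one at 0.62 (limma adjusted p = 0.298). Others of OsrbcS, which fell, gave -0.15, -0.53 and -0.80, none called. The counts of both lists were 0 without either P deficiency array. The part of these shifts in the OsPIN2 difference was not tested.

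**Figure D4:**
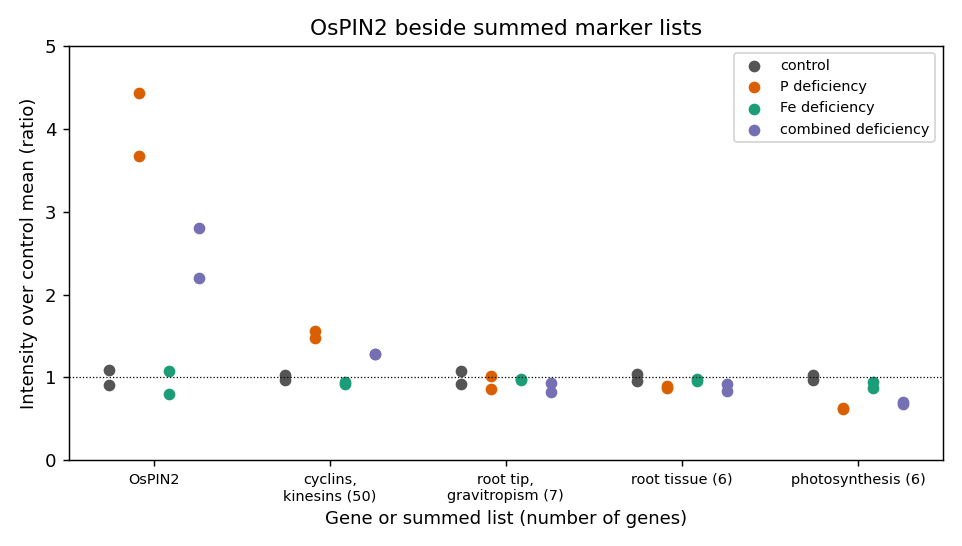
Intensity of OsPIN2 and summed intensity of 4 marker lists on each array, as a ratio to the mean of the 2 control arrays (dotted line at 1). The cyclin and kinesin sum follows the same order of groups as OsPIN2 within a narrower range, and the photosynthesis sum lies below the control in all 3 deficiencies, least so in Fe deficiency.

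The genes whose pattern was most like that of OsPIN2 were sought among 2103 named genes with a mean intensity of at least 100, by Pearson's r of the log2 values over the 8 arrays. The pattern was common. Of 14595 genes compared, named or not, 1756 (12%) had an r of at least 0.9, 787 had one of at least 0.95, and 1653 had one of -0.9 or lower. The points share their arrays and fall into groups with and without P, so r mostly reflects the difference between these and has no p.

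The most alike was OsSUS6 (LOC4331252), a sucrose synthase gene (r = 0.993). It gave 273 and 281 in the control, 670.5 and 667 in P deficiency, 243 and 278 in Fe deficiency and 489 and 466 without both. Its 8 arrays ranked in the same order as those of OsPIN2 (Spearman's rho 1). RPL11, a ribosomal protein gene, OsCslA1, of the cellulose synthase-like family, and OsMCM3, for a subunit of the helicase that opens DNA for replication, followed (r = 0.992, 0.992 and 0.991). OsMCM3 gave 858 and 883 in the control, 1649 and 1531 in P deficiency, 814 and 922 in Fe deficiency and 1281 and 1320 without both.

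The other 6 were PAF1 (0.989), the beta-tubulin gene OsTUB6 (0.989), SCAMP6 (0.988), KIN12C (0.987), OsVDAC3 (0.986) and CC-1 (0.985). KIN12C, a kinesin gene of the dividing-cell list, gave 708 and 677 in the control, 1684 and 1527 in P deficiency, 624 and 698 in Fe deficiency and 1112 and 1070 without both. The log2 differences of these 10 genes in P deficiency ran from 0.34 for SCAMP6 to 1.23 for OsSUS6, all smaller than the 1.98 of OsPIN2. Of the auxin genes the most alike were OsARF8 (r = 0.965) and IAA13 (r = 0.962), and the least was OsGH3-6 (r = -0.978).

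**Figure D5:**
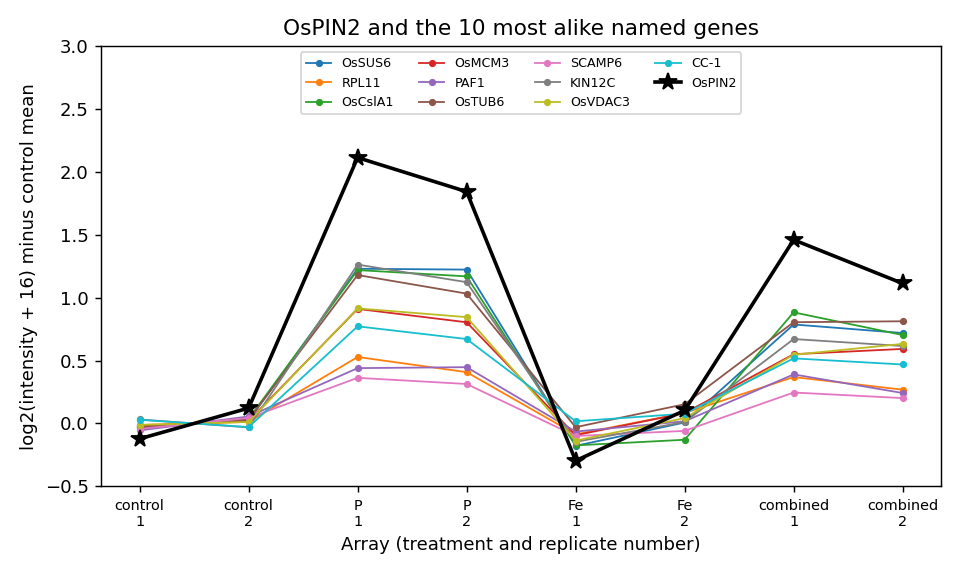
Log2(intensity + 16) minus the mean of the control arrays for OsPIN2 (black stars) and the 10 named genes with the highest r, on each array. Lines join the values of 1 gene and stand for no order of arrays. All 11 profiles are high on the P deficiency arrays and intermediate on those of the combined deficiency, with OsPIN2 having the widest range.

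Of the 3 genes on either side of OsPIN2 in the japonica gene table, 3 of 6 had a probe set. The next gene on one side, LOC4341735, rose in P deficiency from 938 and 835 to 1609 and 1523 (0.81, limma adjusted p = 0.0383), and stood at 886 and 729 in Fe deficiency and 1298 and 1257 without both. Its groups thus stood in the order seen for OsPIN2, with a smaller difference. This call was lost in each of the 8 fits that left out 1 array, at limma adjusted p from 0.0676 to 0.14. It was also lost with each array centred on its median (0.55), with an added 1, with the replicate block and with the arrays of the contrast alone. GRXC8 (LOC4341733), a glutaredoxin gene 3 places from OsPIN2 on the same side, gave 0.29 (limma adjusted p = 0.304). LOC4341738, next on the other side, gave -0.32 (limma adjusted p = 0.647).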

How the data were processed

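The deposited values are probe set intensities on a linear scale, made by the authors in Affymetrix Expression Console 1.1, per the submitters' processing notes. How probe signals were summarized is not stated in these sources. Each array had a mean of 500.07 once 2% of probe sets were trimmed at either end, as from scaling to 500. No detection calls were used.

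The 123 AFFX and 64 RPTR control probe sets were left out. The other 57194 were quantile-normalized and converted to log2(intensity + 16), which understates folds of dim probe sets, and fitted with 1 mean per group to all 8 arrays (limma 3.58.1, R 4.3.3, functions lmFit and eBayes, with 4 degrees of freedom from residuals and 1.74 from the prior). Limma p-values were adjusted by Benjamini-Hochberg over all 57194, threshold 0.05, and "rose" and "fell" mean past it. With 2 arrays per group, their number limits the precision. The fit was also run on simulated arrays with known differences put in and independent noise. As that noise was not shared within an array, the run does not bear on how far the calls above hold.

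Names came from the platform annotation and a RefSeq gene table of a japonica assembly (ASM3414082v1). Of the probe sets, 22436 matched 1 gene, 95 several and 34663 none. Genes with several probe sets were taken by the brightest. The members and lists were chosen with earlier results of these data known. Lists were matched by gene name. Locus numbers matched none, and 2 genes that share only a short name with a root tip gene were dropped. The rule for naming covered all PIN genes, up to 4 genes of each other list by smallest adjusted p, all genes of lists of up to 6, the 10 genes most like OsPIN2 and its measured neighbours. Not all of these are named above. Left out were the photosynthesis genes LIR1, GOS5 and RBCS1, and also KIN14C, KIN14B, OsKCBP, OsGH3-5, ARF3, ARF16 and OsARF16. IAA31 and IAA20 (LOC4340245), outside that rule, were named after their values were seen, to complete a count. No sequences are shown. Same-numbered arrays of different groups did not deviate together (correlations of the replicate differences from -0.017 to 0.017), so numbers were not treated as pairs.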

Additional observations from a re-analysis of the deposited data

How the results depend on the processing

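No direction of an OsPIN2 difference against P supply changed in any of the 16 alternatives, and 93 of 95 OsPIN2 values moved by less than the residual SD of 0.227. Many of these values could hardly move. The replicate block, the intensity trend and the intensity minimum leave the differences unchanged by construction. Leaving out an array barely touches a contrast that does not use it. The count of 93 is therefore no measure of robustness. With arrays centred on their medians, the combined deficiency gave 1.02 against the control and 1.08 against Fe deficiency, and the median of all probe sets shifted by -0.13 (P deficiency), -0.17 (combined) and -0.19 (combined against Fe). The share of calls that were higher was then 32.8%, 29.7% and 27.6%, in place of 51%, 53.8% and 60%. Unnormalized values gave 64.4% in the combined deficiency. Calls were 46 in Fe deficiency and 783 in the combined against Fe deficiency with centring.

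Main counts of probe sets called were 4736, 71, 2200, 18, 1293 and 23, for P, Fe and combined deficiency against the control, the combined against P and against Fe deficiency, and the interaction. In that order, an added 1 gave 3082, 32, 843, 10, 205 and 6, and an added 64 gave 7473, 213, 4506, 118, 3614 and 63. A mean intensity of at least 100 gave 9471, 379, 6998, 527, 6259 and 171, from fewer probe sets tested (23858). An intensity trend in the prior gave 9121, 417, 6642, 707, 5741 and 355. Each contrast's own arrays alone gave 0 in limma in all 5 that could be fitted (11222, 5009, 9526, 5217 and 10491 at an unadjusted p below 0.05). The replicate block gave 2385, 14, 107, 0, 19 and 0, and the numbers are not shown to pair the samples. Leaving out 1 array gave 3 to 2990, 0 to 10, 5 to 651, 0 to 8, 2 to 60 and 0 to 5. The cause of these shifts was not tested.

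Auxin genes called, of 60, were 10 in P deficiency, 3 in the combined deficiency and 4 in the combined against Fe deficiency. They were 16, 13 and 11 with an added 64. With the intensity minimum they were 25, 16 and 17, out of fewer than 60, since dim auxin genes such as OsPIN9 were dropped. The trend gave 24, 19 and 18, and also called 2 in the combined against P deficiency. The counts over all probe sets, given above, rose under each of these settings too. Auxin calls were 0 in the combined deficiency and in the combined against Fe deficiency with an added 1. With the replicate block they were 5, 0 and 0. The contrast's own arrays gave 0, 0 and 0. Leaving out 1 array gave 0 to 7 in P deficiency and 0 in the other contrasts. For OsPIN2 those fits gave 1.85 to 2.12, -0.30 to 0.10, 1.12 to 1.47, -0.87 to -0.52, 1.18 to 1.58 and -0.79 to -0.39.

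Differences in P deficiency that changed sign were all uncalled. OsYUCCA1 turned without normalization (0.024). Leaving out single arrays turned LOC4346116, the gene named OsPIN5b and OsPIN5c (-0.36 to 0.42), OsPIN5a (-0.038 to 0.47), OsCslD1 (-0.78 to 0.23) and LOC4341738 (-0.81 to 0.18). OsPIN2 had 1 probe set, so no second one could be tried.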
